A study of Mus musculus with 1392 samples.

Results

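The Nr4a loci were taken as the 30 peaks, of 115295 in the count table, whose interval overlaps 1 of 3 windows in the mouse build mm9 around Nr4a1, Nr4a2 and Nr4a3. The Nr4a1 window, chr15:101060000-101125000, held 19 peaks, the Nr4a2 window, chr2:56930000-57000000, held 5, and the Nr4a3 window, chr4:48030000-48120000, held 6. Members were chosen by position among regions that the authors listed as peaks, and the 3 genes were selected on results already obtained from these cells. The differences between ages given here are therefore a description of chosen loci and no independent support for the choice. No mm9 annotation was used, so peaks were not assigned to promoters, exons, introns or single genes. In the gene order of GRCm38.p6, the protein-coding neighbours were Grasp and Atg101 for Nr4a1, Kcnj3 and LOC105244150 for Nr4a2, and Sec61b and Stx17 for Nr4a3, and peaks of a window may belong to them.

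Nr4a1, Nr4a2 and Nr4a3 encode the NR4A family, orphan nuclear receptors that act without a known classical hormone ligand. They are immediate early genes, transcribed within minutes of many signals, among them cyclic AMP acting through CREB at CRE elements, and their proteins bind DNA at an element called NBRE. In mouse haematopoietic stem cells they are known to restrain proliferation, and combined loss of Nr4a1 and Nr4a3 leads to acute myeloid leukaemia in mice.

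The study compared old and young C57BL/6 mice by plate-based single-cell ATAC-seq, which counts DNA fragments that the Tn5 transposase can insert into, and so measures how accessible chromatin is. The cells were bone marrow haematopoietic stem cells sorted as LSK, CD150+, CD48-, CD34- and Vwf+, a phenotype linked to platelet-biased output. The old group held 1060 cells in 3 numbered sets, named old 1, old 2 and old 3 (306 to 380 cells a set), and the young group held 332 cells in 2 sets (181 and 151 cells in young 1 and young 2). The ages in weeks, the number of mice behind a set and the way Vwf was detected were not found in the labels. Every set held cells of 1 age, so age cannot be told apart from the preparation of a set. Nothing says that sets came from separate animals, and the p-values therefore reflect variation among sets that may be purely technical. Total counts were 4181770, 2125677 and 1640887 in old 1, old 2 and old 3, against 1159957 and 2589894 in young 1 and young 2. The median cell held 9623, 4434 and 3604.5 counts in the old sets, against 6133 and 11807 counts in the young sets. Levels are given as CPM, the counts at a peak per 1000000 counts in all peaks of that set. Stem cell identity was not checked at marker genes, since no mm9 annotation was used.

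The promoters of the 3 genes are shown because NR4A genes are classed as CREB-responsive, and because the peaks beside them were compared together. The sequences, 300 bases that end 50 bases after the gene start, are those of RefSeq in GRCm38.p6, and all 3 genes matched by symbol. They lie at chr15:101266596-101266895 on the plus strand for Nr4a1, chr2:57123954-57124253 on the minus strand for Nr4a2 and chr4:48045055-48045354 on the plus strand for Nr4a3. Capitals mark the CRE core TGACG or its reverse complement CGTCA.
Nr4a1: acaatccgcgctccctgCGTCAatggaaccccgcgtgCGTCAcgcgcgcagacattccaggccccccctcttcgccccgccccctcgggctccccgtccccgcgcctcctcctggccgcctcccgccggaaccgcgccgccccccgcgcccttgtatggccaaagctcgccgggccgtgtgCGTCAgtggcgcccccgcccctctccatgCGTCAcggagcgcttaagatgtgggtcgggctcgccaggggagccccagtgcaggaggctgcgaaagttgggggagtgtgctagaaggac
Nr4a2: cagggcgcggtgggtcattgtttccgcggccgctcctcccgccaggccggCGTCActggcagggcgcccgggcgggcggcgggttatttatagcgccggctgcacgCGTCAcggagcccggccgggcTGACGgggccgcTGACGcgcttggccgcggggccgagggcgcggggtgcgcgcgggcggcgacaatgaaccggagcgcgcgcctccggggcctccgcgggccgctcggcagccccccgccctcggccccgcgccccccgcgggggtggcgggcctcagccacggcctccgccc
Nr4a3: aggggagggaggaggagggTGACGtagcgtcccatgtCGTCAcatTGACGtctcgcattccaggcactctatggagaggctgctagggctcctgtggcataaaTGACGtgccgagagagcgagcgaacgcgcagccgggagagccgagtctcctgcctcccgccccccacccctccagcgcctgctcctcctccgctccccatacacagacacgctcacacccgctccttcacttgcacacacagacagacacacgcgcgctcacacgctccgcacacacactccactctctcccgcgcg
Each promoter held 4 CRE cores over both strands. Of 32851 RefSeq promoters of the same length, 20.8% held at least 1 CRE core and 0.231% held 4 or more. None of the 3 held the full palindrome TGACGTCA, present in 1.79% of all promoters, or the NBRE letters AAAGGTCA, present in 1.51%. The GC box GGGCGG occurred 3 times in the Nr4a1 promoter, 5 times in the Nr4a2 promoter and 1 time in the Nr4a3 promoter. Of all promoters, 35.7% held it, 10.7% held 3 or more and 2.71% held 5 or more. The letters TATAAA occurred 1 time, in the Nr4a2 promoter, and 13.6% of all promoters held them. The base composition was 72.3% GC for Nr4a1, 81.7% for Nr4a2 and 64.7% for Nr4a3, against a median of 52.7% over all promoters. The motif shares over all promoters were not matched for GC, so they do not give the rate at a like composition. All motifs were searched on both strands, and every TGACGTCA also contains the core. A match describes letters and not a bound site. Because the builds differ, the place of these promoters among the mm9 peaks was not determined.

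Chromatin at Nr4a1 and Nr4a2 had a lower summed CPM in every old set than in either young set, whereas the sets of the 2 ages overlapped at Nr4a3. Summed over its 19 peaks, the Nr4a1 window had 245.6, 254.5 and 203.5 CPM in old 1, old 2 and old 3, against 337.9 and 371.1 CPM in young 1 and young 2. The means were 235 ± 27.2 CPM in old (SD, n = 3 sets) and 354.5 ± 23.4 CPM in young (SD, n = 2 sets), a log2 ratio of -0.60. The Nr4a2 window had 111.4, 116.2 and 118.2 CPM in the old sets, against 175.0 and 167.2 CPM in the young sets. Its means of 115 ± 3.49 CPM in old and 171 ± 5.53 CPM in young gave a log2 ratio of -0.57, and the old sets lay within a narrow range. The Nr4a3 window had 120.3, 140.2 and 112.1 CPM in the old sets, against 137.9 and 171.8 CPM in the young sets. Here old 2 lay above young 1, and the means of 124 ± 14.4 CPM in old and 155 ± 24.0 CPM in young gave a log2 ratio of -0.32. That ratio rested on the young sets, at -0.15 without young 2 and -0.47 without young 1. It was -0.18 with binarized counts and -0.41 with TMM-adjusted totals. These sums rest on 3255, 1543 and 1590 counts over all sets for Nr4a1, Nr4a2 and Nr4a3, and no p is given for them, since the peaks were chosen.

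Per kilobase of peak, the order of the 3 windows was the same at both ages. The Nr4a3 window was the most accessible, at 37.8 CPM per kb in old and 47.2 CPM per kb in young. The Nr4a2 window followed at 26.9 CPM per kb in old and 40.0 CPM per kb in young, and Nr4a1 was lowest at 23.2 CPM per kb in old and 35.1 CPM per kb in young. At each age, neighbours in this order did not overlap over the sets, since the lowest Nr4a3 set held 34.2 CPM per kb in old and 42.0 in young and the highest Nr4a2 set held 27.6 in old and 40.9 in young. The lowest Nr4a2 set held 26.0 CPM per kb in old and 39.1 in young, and the highest Nr4a1 set held 25.2 in old and 36.8 in young.

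The share of cells with at least 1 count in a window was also computed. With so few counts per cell, this share largely follows the summed CPM and is no second line of evidence. Neither measure separates fewer cells with an accessible locus from fewer fragments per cell. Because this share moves with depth, it was averaged over all ways of thinning each cell to 1906 counts, a measure chosen after the data were seen. At this depth an Nr4a1 count was found in 36.5%, 34.9% and 28.8% of cells in old 1, old 2 and old 3, against 46.5% and 48.4% of cells in young 1 and young 2. An Nr4a2 count was found in 18.6%, 18.3% and 18.2% of cells in the old sets, against 28.5% and 26.0% of cells in the young sets. For both genes every old set was below every young set. An Nr4a3 count was found in 18.6%, 22.2% and 19.2% of cells in the old sets, against 22.0% and 26.3% of cells in the young sets, where old 2 again lay above young 1. The age means were 33.4% ± 4.10 in old and 47.5% ± 1.34 in young for Nr4a1, 18.3% ± 0.216 in old and 27.3% ± 1.80 in young for Nr4a2, and 20.0% ± 1.905 in old and 24.2% ± 3.07 in young for Nr4a3 (SD, n = 3 old and 2 young sets). Without thinning, the shares for Nr4a1 were 67.0%, 61.8% and 46.5% in the old sets, against 80.7% and 88.1% in the young sets. The unthinned shares for Nr4a2 were 53.3%, 39.2% and 33.4% in old and 57.5% and 74.2% in young, and for Nr4a3 they were 52.6%, 43.4% and 34.8% in old and 47.5% and 72.2% in young.

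**Figure D1:**
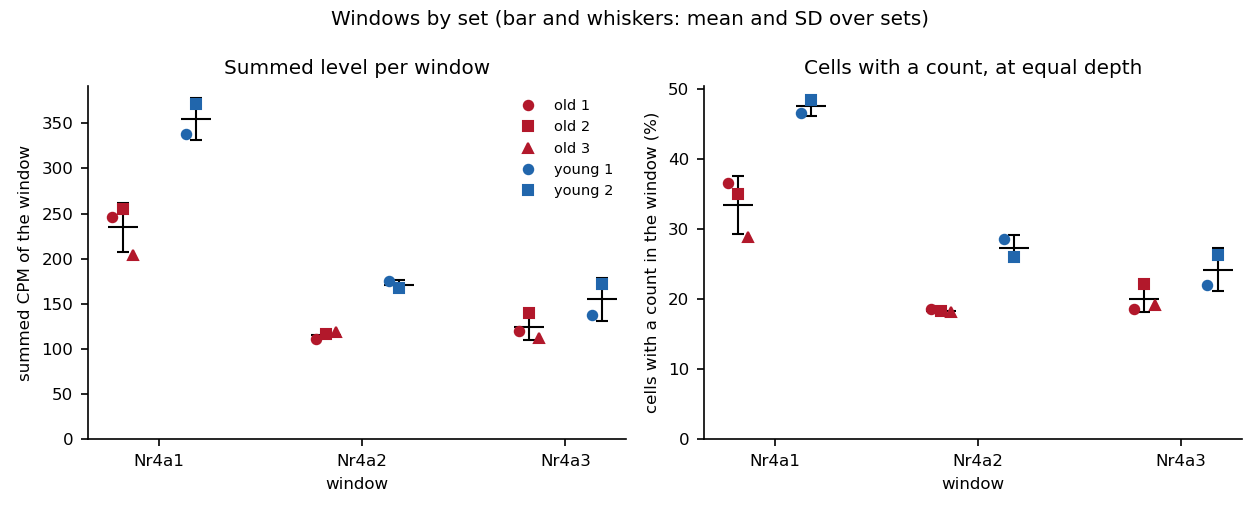
Summed CPM of each Nr4a window by set (left) and the percent of cells with a count in it at a depth of 1906 counts (right), old sets left of young sets, with bars and whiskers at the mean and SD of each age. The 3 old sets sit at 203.5 to 254.5 CPM for Nr4a1 and 111.4 to 118.2 CPM for Nr4a2, below both young sets, while the sets of the 2 ages overlap at Nr4a3.

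Of the 30 peaks, 21 passed the filter on low counts and entered the edgeR quasi-likelihood test of old against young over 58167 peaks. The 9 peaks that did not pass held 10 to 54 counts over all sets, 4 of them at Nr4a1, 2 at Nr4a2 and 3 at Nr4a3. The test called 5 of the 21 peaks, all lower in old, at a Benjamini-Hochberg adjusted p under 0.05. Over all tested peaks, 3.17% were called in either direction, 1036 lower in old and 808 higher in old, and 1.78% were called lower in old. With library totals in place of TMM factors the split over all peaks was 770 lower and 1051 higher in old, and the median log2 fold change of all peaks moved by 0.10. No Nr4a peak was called higher in old by edgeR or DESeq2, and none had an unadjusted p under 0.05 in that direction by either. The log2 fold change was negative at 18 of the 21 tested Nr4a peaks, with a median of -0.50, beside a median of -0.01 and 50.8% negative over all tested peaks. In 10 of the 21, 8 at Nr4a1 and 2 at Nr4a2, every old set was below every young set in CPM, which held for 12.9% of all tested peaks. Every old set was above every young set in 1 of the 21, at Nr4a1, and in 20.1% of all tested peaks. The filter asked for 4.70 CPM in at least 2 sets, and 16 of the 21 met it at both ages, with 15 negative fold changes, 4 calls and 8 peaks without overlap. Of the rest, 2 passed through the young sets alone, both negative and without overlap and 1 of them called, and 3 passed through the old sets alone, with 1 negative and no call. A peak that passed through 1 age alone was favoured to be higher in that age, so the counts over the 21 describe the peaks that passed and lend no support. An unadjusted p under 0.05 was found for 11 of the 21, all lower in old, against 8981 of the 58167 peaks tested.

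**Figure D2:**
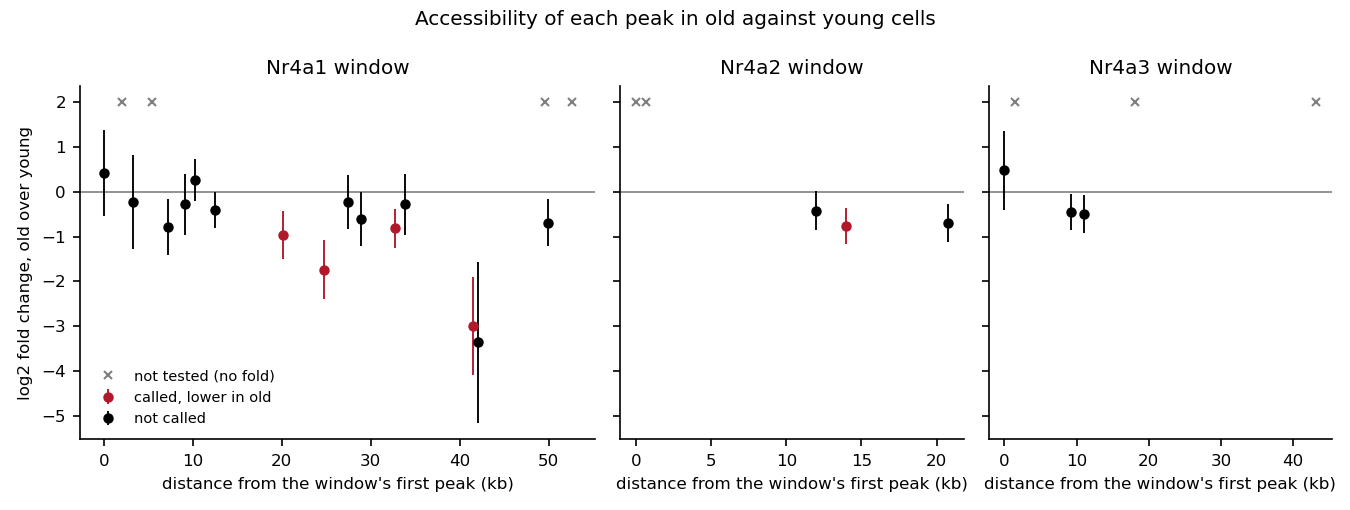
The log2 fold change of old over young from edgeR for each tested peak, with its 95% interval, against the distance in kb from the first peak of its window. Crosses at the top mark peaks that were not tested, and the 5 called peaks lie at 20.1, 24.8, 32.8 and 41.5 kb at Nr4a1 and 13.9 kb at Nr4a2, all below 0.

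The Nr4a1 window held 15 of the 21 tested peaks and 4 of the 5 called peaks, all 4 lower in old. The call that stayed past the threshold in all 13 alternatives that gave it a value was the peak at chr15:101088849-101089238. It had 5.02, 11.8 and 4.88 CPM in old 1, old 2 and old 3, against 23.3 and 21.6 CPM in young 1 and young 2. Every old set lay below both young sets, with means of 7.22 ± 3.93 CPM in old and 22.4 ± 1.17 CPM in young. The edgeR log2 fold change was -1.74 (SE 0.33, adjusted p = 0.000546), and it ranged over the alternatives between -2.22 and -1.40. A count at this peak was found in 16, 21 and 7 cells of the old sets, against 22 and 34 cells of the young sets. At the common depth of 1906 counts this was 0.887%, 1.66% and 0.867% of cells in the old sets, against 4.29% and 3.95% in the young sets. In thinned cells the peak did not pass the filter on low counts and was not tested.

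The peak at chr15:101105578-101105899 had 0.717, 8.00 and 1.83 CPM in the old sets, against 25.9 and 21.6 CPM in the young sets. The old sets differed among themselves, with old 2 highest, and all 3 lay below both young sets. Its edgeR log2 fold change was -2.99 (SE 0.56, adjusted p = 0.00813), past the threshold in 11 of 13 alternatives. It entered the test through the young sets alone, since 1 old set reached the filter's 4.70 CPM, so its selection for testing was not independent of the difference. It was not past the threshold by DESeq2 (adjusted p = 0.442) or in edgeR without old 3 (adjusted p = 0.0639). The next peak, 177 bp away at chr15:101106076-101106590, had 0, 6.59 and 3.66 CPM in the old sets, against 28.4 and 25.5 CPM in the young sets. It was singled out here after its values were seen, and it too passed the filter through the young sets alone. The count of 0 in old 1 allows up to 0.717 CPM (3 counts in that set), which covers counting error only. Its edgeR log2 fold change of -3.36 (SE 0.92) had an adjusted p of 0.180, so it was not called, although its groups did not overlap. It passed the threshold in 9 of 13 alternatives, among them binarized counts (adjusted p = 9.33e-06 in edgeR), and not by DESeq2 (adjusted p = 0.826). It also passed in edgeR without old 1, old 2, young 1 or young 2, each left out in turn, and not without old 3 (adjusted p = 0.286).

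The called peak with the lowest log2 fold change was joined with its nearest neighbour. The values of this pair describe the difference that selected it and lend no support. Taken as 1 region, these adjacent peaks held 3, 31 and 9 counts in old 1, old 2 and old 3, against 63 and 122 counts in young 1 and young 2. That is 0.717, 14.6 and 5.48 CPM in the old sets, against 54.3 and 47.1 CPM in the young sets, with means of 6.93 ± 7.04 CPM in old and 50.7 ± 5.10 CPM in young. A count there was found in 3, 23 and 8 cells of old 1, old 2 and old 3, which is 0.980%, 6.05% and 2.14% of each set. In the young sets it was found in 46 of 181 and 55 of 151 cells, which is 25.4% and 36.4%. These shares are not at equal depth. Median counts per cell were 9623, 4434 and 3604.5 in the old sets, against 6133 and 11807 in the young sets. The part of depth in the shares was not tested. At the common depth of 1906 counts the average share was 0.125%, 2.55% and 1.07% in the old sets, against 9.70% and 8.16% in the young sets. The counts were spread over 34 old and 101 young cells, with at most 4 counts in 1 old cell and 6 in 1 young cell. Both peaks had a count in 0, 2 and 0 cells of the old sets, against 3 and 18 cells of the young sets.

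The pair made up 0.292%, 5.73% and 2.69% of all counts of the Nr4a1 window in old 1, old 2 and old 3, against 16.1% and 12.7% in young 1 and young 2. Since the pair was chosen by its fold change, these shares are a description. The other 17 peaks of the window summed to 245, 240 and 198 CPM in the old sets, against 283.6 and 324 CPM in the young sets. Without the pair, all old sets were again below the young ones, with means of 228 ± 25.7 CPM in old and 304 ± 28.5 CPM in young and a log2 ratio of -0.42.

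**Figure D3:**
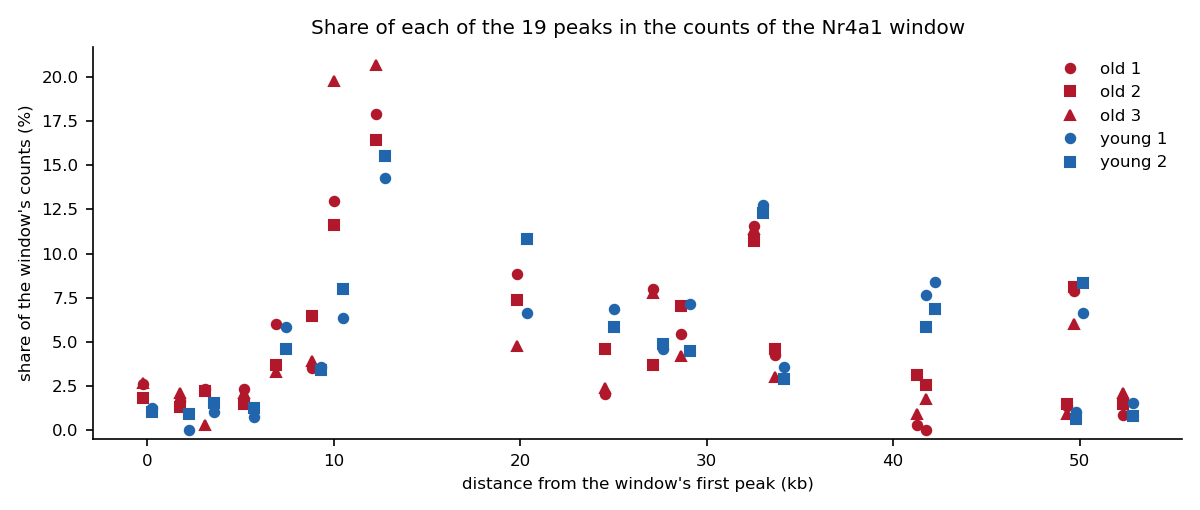
Share of the counts of the Nr4a1 window, in percent, at each of its 19 peaks against the distance from the first peak in kb, with old sets drawn left of young sets. Summed over the adjacent pair at 41.5 and 42.0 kb the share is 0.292% to 5.73% in the old sets and 12.7% to 16.1% in the young sets. The pair was chosen by its fold change.

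Both remaining called peaks of the Nr4a1 window had smaller fold changes. The peak at chr15:101096820-101097495 had 28.5, 27.3 and 23.2 CPM in the old sets, against 43.1 and 45.6 CPM in the young sets. Its groups did not overlap and its edgeR log2 fold change was -0.82 (SE 0.22, adjusted p = 0.0264), past the threshold in 2 of 14 alternatives. Its log2 fold change stayed between -0.85 and -0.61 over those alternatives. Leaving out any 1 of the 5 sets ended the call (edgeR adjusted p-values between 0.0556 and 0.315), with log2 fold changes between -0.85 and -0.71. The peak at chr15:101084146-101085146 had 21.8, 18.8 and 9.75 CPM in the old sets, against 22.4 and 40.2 CPM in the young sets. The level of old 1 was close to that of young 1, and the edgeR log2 fold change of -0.97 (SE 0.27, adjusted p = 0.0343) was past the threshold in 5 of 14 alternatives. Without young 2 its log2 fold change was -0.39 (adjusted p = 0.766 in edgeR), without old 3 it was -0.73 (adjusted p = 0.252), and without old 2 it was -1.01 (adjusted p = 0.141).

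Other well covered peaks of the Nr4a1 window did not pass the test. The most accessible, chr15:101076549-101077320, had 44.0, 41.9 and 42.1 CPM in the old sets, against 48.3 and 57.5 CPM in the young sets (log2 fold change -0.40, SE 0.21, edgeR adjusted p = 0.345). Its old sets were nearly equal and all below the young sets. The peak before it, chr15:101074299-101074941, had its highest level in old 3, with 31.8, 29.6 and 40.2 CPM in old, against 21.6 and 29.7 CPM in young. There old 2 lay just below young 2, and the edgeR log2 fold change of 0.26 (SE 0.24) had an adjusted p of 0.669. The peak at chr15:101114010-101115084, the widest of the window at 1074 bp, had 19.4, 20.7 and 12.2 CPM in old, against 22.4 and 30.9 CPM in young. All its old sets were lower, at a log2 fold change of -0.70 (SE 0.27, edgeR adjusted p = 0.159). The 11 peaks of the window that are not described singly averaged 2.98 to 15.0 CPM in old and 1.74 to 20.4 CPM in young.

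At Nr4a2, 3 of the 5 peaks were tested and they held most of the counts of the window. The called peak, chr2:56968740-56969776, was its most accessible, with 44.5, 48.5 and 50.0 CPM in the old sets, against 87.9 and 67.6 CPM in the young sets. The old sets lay close together and below both young sets, and young 1 stood well above young 2. At the common depth of 1906 counts, 7.99%, 7.89% and 8.42% of cells in the old sets held a count there, against 15.8% and 12.0% of cells in the young sets. Without thinning these were 107, 74 and 65 cells of the old sets, against 69 and 76 cells of the young sets. Its edgeR log2 fold change was -0.77 (SE 0.20, adjusted p = 0.0201), past the threshold in 6 of 14 alternatives. Leaving out old 1, old 2, old 3 or young 1 ended this call (edgeR adjusted p-values between 0.0860 and 0.273), with log2 fold changes of -0.68, -0.78, -0.77 and -0.59 in that order. The peak at chr2:56975556-56977009, 1453 bp wide, had 31.6, 30.1 and 25.6 CPM in old, against 42.2 and 47.5 CPM in young. Its groups did not overlap either, and its log2 fold change of -0.70 (SE 0.22) was not called (edgeR adjusted p = 0.0687). The peak at chr2:56966788-56967815 had 29.9, 32.5 and 37.8 CPM in old, against 37.1 and 45.2 CPM in young. Here old 3 lay above young 1, and the log2 fold change was -0.42 (SE 0.22, edgeR adjusted p = 0.360). The untested pair of peaks averaged 3.87 and 1.31 CPM in old, against 4.00 and 3.36 CPM in young.

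At Nr4a3, none of the 3 tested peaks was called by edgeR or by DESeq2, while an unadjusted p under 0.05 was found for 2 of them by edgeR and for 1 by DESeq2. The peak at chr4:48055543-48056606 was the most accessible of all 30, with 67.4, 80.9 and 57.9 CPM in the old sets, against 80.2 and 97.3 CPM in the young sets. Old 2 lay just above young 1, and the log2 fold change was -0.46 (SE 0.20, edgeR adjusted p = 0.246). Its neighbour at chr4:48057430-48058311 had 38.3, 48.5 and 38.4 CPM in old, against 47.4 and 61.8 CPM in young, and old 2 was again just above young 1. The log2 fold change there was -0.50 (SE 0.21, edgeR adjusted p = 0.222). The first peak of the window, chr4:48046372-48046949, had 6.93, 5.17 and 12.2 CPM in old, against 4.31 and 5.79 CPM in young. It rests on 80 counts in all, and its log2 fold change was 0.47 (SE 0.45, edgeR adjusted p = 0.669). The 3 untested peaks averaged 0.715 to 4.07 CPM in old and 0.386 to 4.71 CPM in young. Whether the difference between ages at Nr4a3 is smaller than at Nr4a1 or Nr4a2 was not tested.

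**Figure D4:**
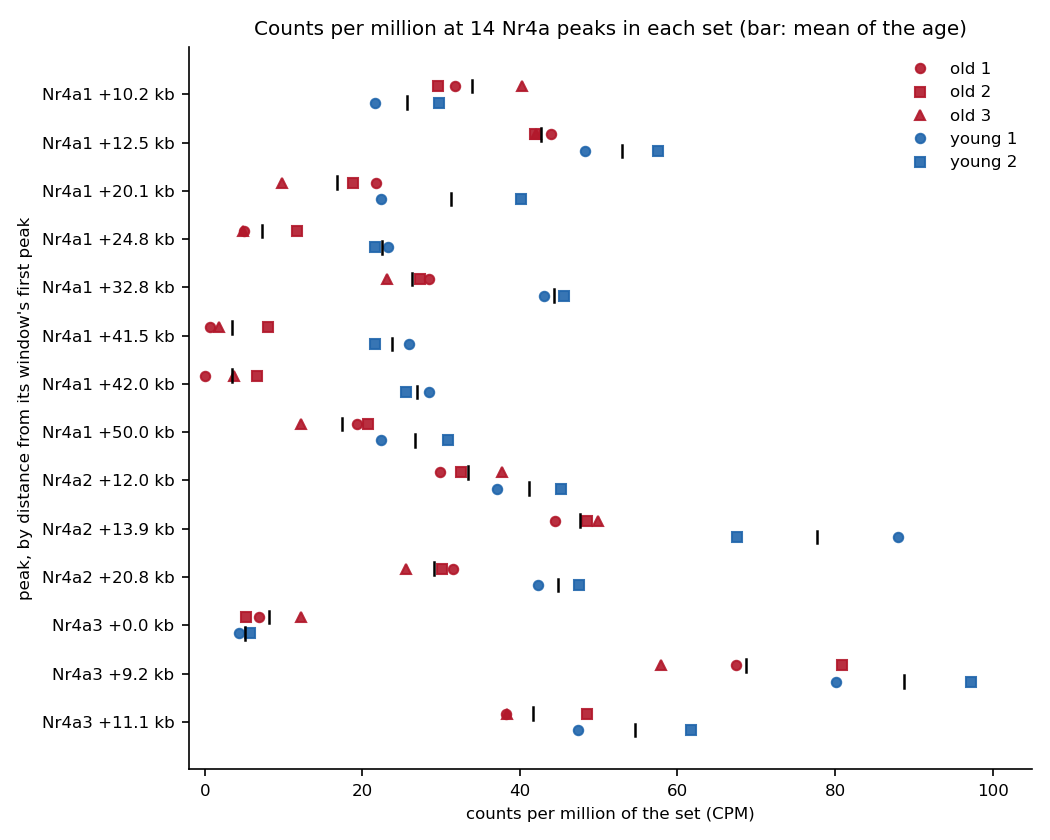
Accessibility in CPM of the 14 described peaks in each of the 5 sets, old sets above young sets at every peak, with a bar at the mean of each age. At the Nr4a1 peak at 24.8 kb the old sets sit at 5.02, 11.8 and 4.88 CPM, against 23.3 and 21.6 CPM in the young sets.

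Peaks within 500 kb of the windows were tabulated to set the windows beside their surroundings. Around Nr4a1, 65 of 109 flanking peaks were tested, with a median log2 fold change of 0.12 and 1 call, higher in old, beside a median of -0.61 in the window. Around Nr4a2, 10 of 31 were tested, with a median of -0.02 beside -0.70 in the window. None of these 10 was called by edgeR or DESeq2. Around Nr4a3, 20 of 41 were tested, with a median of -0.09 and 1 call, lower in old, beside a median of -0.46 in the window. An unadjusted p under 0.05 in edgeR was found for 11 of the 65 around Nr4a1, 4 lower and 7 higher in old. It was found for 3 of the 10 around Nr4a2, 2 lower and 1 higher, and for 3 of the 20 around Nr4a3, all lower. Over all tested peaks it was found for 8981 of 58167. The difference between windows and flanks was not tested. At the edges of the windows, the first and last members averaged 0.872 to 29.1 CPM in old and 1.40 to 44.9 CPM in young, and the nearest peaks outside averaged 0.959 to 10.1 CPM in old and 1.06 to 9.05 CPM in young.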

How the data were processed

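Sorted bone marrow cells of old and young mice were profiled by single-cell ATAC-seq, 1 cell to a sample. The authors deposited 1 table of raw counts, with a row per peak and a column per cell, and its values are whole numbers with unequal totals. Per the submitters' processing notes, the tools were Bowtie2, FastQC, Picard, SAMtools and Trim Galore, with no version given, and the build was mm9. Not given in the sources used here are the peak caller, the counting of reads or fragments, the shift of Tn5 cut sites and any filters on cells and duplicates. Kept duplicates would raise counts at single peaks, and 77.7% of nonzero entries were 1, with 94.6% of entries at 0. Whether peak starts count from 0 or 1 is not stated.

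Groups and set numbers came from the sample titles. Counts were summed per set and tested over the whole table with edgeR 4.0.16 in R 4.3.3 (robust quasi-likelihood test on TMM factors, Benjamini-Hochberg adjustment), after filterByExpr at a minimum of 10 counts, and a peak was called at an adjusted p under 0.05. The step was also run on simulated counts that vary alike at all peaks, unlike these data, so that run checks the code and no single call. SEs are the absolute log2 fold change over the square root of F, and intervals drawn are 1.96 SEs on either side. This multiple is that of a normal distribution, so they can be narrower than 95% intervals. An example is the Nr4a1 peak that starts at 101106076 (F = 13.4, unadjusted p = 0.0149 in edgeR). CPM used the set's total counts, so a peak with few counts is imprecise. Peaks described singly were every called member and the 5 tested members with the highest mean CPM in each window. The Nr4a1 peak that starts at 101106076 did not meet this rule and was added after its values were seen. Shares of cells were compared at 1906 counts per cell, the 10th percentile, which left out 84, 13 and 34 cells of old 1, old 2 and old 3 and 4 and 5 cells of young 1 and young 2. The members and lists were chosen with earlier results of these data known. Alternatives were DESeq2 1.42.0 and its size factors, library totals, no filter or a minimum count of 30, binarized counts, thinned cells, cells between the 5th and 95th percentile of counts, a replicate block, a threshold of 0.01 and leaving out each set. Since the RefSeq tables are of GRCm38.p6 and the peaks of mm9, an intended list of immediate early genes and cell type markers was not analysed here.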

Additional observations from a re-analysis of the deposited data

How the results depend on the processing

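Over all tested peaks the 1844 calls became 426 with DESeq2, 769 with a minimum count of 30, 220 in thinned cells, 1102 with the replicate block and 840 at a threshold of 0.01, and leaving out 1 set gave 776 (without old 3) to 1641, with 1075 without old 2 and 989 without young 2. The 5 calls among the Nr4a peaks became 1 with DESeq2, 3 with library totals, 3 with the replicate block (2 of the 5 kept and 1 gained, at the Nr4a1 peak that starts at 101106076), 2 at a threshold of 0.01 and 0 in thinned cells, where edgeR tested 9 of the peaks and 2 had an unadjusted p under 0.05. Leaving out old 1 gave 4 calls (3 of the 5 kept and 1 gained), and leaving out old 2 gave 3 (2 kept and 1 gained). The gained call was at the same Nr4a1 peak each time. Without old 3, 1 of the 5 calls was kept and none was gained. The replicate block compared sets of equal number, so it rested on old 1 with young 1 and old 2 with young 2. There old 3, with no young partner, did not enter the difference between ages. Whether equal set numbers mark a shared preparation is not in the labels. Deviations from the age means correlated at -0.0758 for old 1 with young 1 and -0.000706 for old 2 with young 2. These values cannot settle it, since the deviations of the 2 young sets mirror each other and counts per peak are low. Of 190 log2 fold changes of the 14 described peaks under alternatives, 0 turned sign, 31 lost a call and 9 gained one, all 9 at the Nr4a1 peak that starts at 101106076. With TMM-adjusted totals the log2 ratio of summed CPM was lower at all 3 windows, at -0.69 for Nr4a1, -0.67 for Nr4a2 and -0.41 for Nr4a3. The log2 ratio of the Nr4a2 window, -0.57, became -0.45 with binarized counts and -0.68 in thinned cells. The difference in the share of cells, old minus young, after 1 seeded thinning was -15.2 percentage points for Nr4a1, -10.2 for Nr4a2 and -2.55 for Nr4a3. Averaged over all thinnings it was -14.1, -8.93 and -4.17, and with no thinning -25.9, -23.8 and -16.3. Another seed gave -3.64 for Nr4a2 and -4.74 for Nr4a3, and thinning to the 25th percentile gave -11.1 for Nr4a2 and -0.935 for Nr4a3. Leaving out 1 set was tried on the 1 seeded thinning and not on the average. There the difference was -17.9 to -12.2 for Nr4a1, -11.01 to -9.35 for Nr4a2 and -3.76 to -1.36 for Nr4a3. The log2 ratio of the Nr4a3 window, -0.32, was -0.47 to -0.15 without 1 set. Shares of cells at single peaks turned sign at the Nr4a1 peak 101076549 (0.301 at the 25th percentile), at 101074299 (0.136 after 1 seeded thinning, -6.40 with no thinning, -0.308 without old 1, -0.0614 without young 1, and -0.308 to 0.665 over the sets left out in turn), at the Nr4a3 peak 48057430 (-1.63 after 1 seeded thinning, 0.312 without young 1, and -3.57 to 0.312 over the sets left out in turn) and at 48046372 (-0.787 with no thinning, -0.494 with another seed). The cause of these changes was not tested, other than that thinned cells, fewer sets and a stricter threshold leave fewer counts, sets or calls by construction. The described peaks rest on 80 to 894 counts each, and the SEs of their log2 fold changes ran from 0.20 to 0.92.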

Other observations

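The 3 Nr4a windows were also read together in single cells, after 1 seeded thinning to 1906 counts. At least 1 Nr4a count was found in 57.7%, 57.2% and 48.8% of cells in old 1, old 2 and old 3, against 70.1% and 69.9% of cells in young 1 and young 2. All 3 windows had a count in 2, 3 and 4 cells of the old sets, against 5 and 5 cells of the young sets, too few to compare. Counts in both Nr4a1 and Nr4a2 were found in 4.95%, 6.54% and 4.71% of cells in the old sets, beside 5.78%, 6.21% and 4.41% as the product of the single shares. In the young sets this was 13.6% and 13.7%, beside products of 12.5% and 13.2%. Nr4a1 with Nr4a3 was found in 7.21%, 8.17% and 6.18% of cells in the old sets, beside products of 7.97%, 7.42% and 4.96%, and in 10.2% and 11.6% in the young sets, beside products of 11.0% and 11.1%. Nr4a2 with Nr4a3 was found in 5.41%, 2.72% and 3.24% in the old sets, beside products of 3.83%, 3.41% and 3.05%, and in 6.21% and 6.85% in the young sets, beside products of 6.73% and 5.70%. The shares lay on both sides of their products, with 10 to 30 cells behind each. The cells of a set share its libraries and depth, so these shares are a description.

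Among 8032 peaks outside the windows with a count in at least 5% of 1252 thinned cells, the one with the pattern over cells most like each window was the same for all 3, at chr5:148422919-148423286. Its cosine similarity was 0.467 with the Nr4a1 window, 0.342 with Nr4a2 and 0.335 with Nr4a3, and it had a count in 53.8% of the cells. The next for all 3 was at chr8:86280582-86280977, with a count in 45.9% of cells. The measure is higher for peaks found in more cells.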
